A study of Mus musculus with 18 samples.

Results

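The genes described here encode the subunits of the receptors for glutamate and GABA, the main excitatory and inhibitory transmitters of the cortex. They were chosen by symbol alone: every gene whose name marks it as an AMPA (Gria), NMDA (Grin), kainate (Grik), delta (Grid) or metabotropic (Grm) glutamate receptor subunit, or as a GABA-A (Gabr) or GABA-B (Gabbr) receptor subunit. This gave 38 of the 13784 genes measured, 24 of them glutamate and 14 of them GABA receptor genes. The family names hold 6 further genes, Grin3b, Grm6, Gabra6, Gabrr1, Gabrr2 and Gabrr3, which are not analysed here.

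AMPA, NMDA and kainate receptors are cation channels built from several subunits around a pore; AMPA receptors carry most fast excitation, and NMDA receptors admit calcium when glutamate and depolarisation coincide. Metabotropic glutamate receptors (mGlu) and GABA-B receptors signal through G proteins, whereas GABA-A receptors are chloride channels usually made of alpha, beta and gamma or delta subunits. Most of these genes are transcribed mainly in neurons, but Grm3 (mGlu3), Grin2c (GluN2C) and Gabrg1 (gamma-1) are known to be enriched in forebrain astrocytes, the cells that take up glutamate and GABA at synapses.

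Whole cortex of 18 mice was sequenced as bulk RNA. Control mice received either saline (4 mice) or lipopolysaccharide (LPS, a bacterial outer membrane component that triggers innate immunity; 5 mice), and mice with a conditional knockout (cKO) of Chd8 in astrocytes likewise received saline (4 mice) or LPS (5 mice). LPS was injected intraperitoneally at 5 mg/kg into mice aged 4 to 6 months, and the tissue was collected after 3 days; libraries were stranded and ribosome-depleted. The labels name neither the Cre line nor the promoter that drives it, the genotype of the controls beyond that word, the sex, nor any batch. The values come from 3 tables of the authors' own comparisons (LPS against saline in control mice, LPS against saline in cKO mice, and cKO against control mice after LPS), so values per mouse, the depth of each library and the overlap of groups cannot be given. A gene is said to have risen or fallen where its false discovery rate (FDR, a Benjamini-Hochberg adjusted p over all 13784 genes of the table, from edgeR's F test) was below 0.05.

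Several measurements of the whole series bear on the receptor values. Chd8, a chromatin remodeller and the gene deleted, differed little between the genotypes after LPS in whole cortex (log2 fold change 0.02 ± 0.05 SE, FDR = 0.901, in the authors' deposited table), which does not check the deletion in astrocytes. Chd8 itself rose with LPS in both genotypes in edgeR's test (0.34, FDR = 0.0312, in controls and 0.45, FDR = 0.00597, in cKO mice). Sex-linked transcripts did not match between the groups: the Y-linked genes Ddx3y and Uty had back-calculated levels of -7.2 and -7.3 log2 CPM (sequenced fragments scaled to a common library total) in the control saline group and of 2.5 to 5.9 in the other 3, and Xist lay at 7.5 and 7.3 in the control groups against 4.3 and 5.9 in the cKO groups. Of the receptor genes, Gria3 and Gabra3 are X-linked. Titles number the saline libraries plainly and the LPS libraries with letters, so treatment and any difference in preparation cannot be told apart. The summed level of 3 choroid plexus markers went from 114 to 11.4 CPM with LPS in controls and from 117 to 22.1 CPM in cKO mice, and all 9 striatal neuron markers lay higher in cKO than in control mice after LPS (median log2 fold change 0.63). After saline, estimated without a test, all 9 striatal markers lay higher in cKO mice too (median 0.26). In edgeR's test 0 of these choroid plexus markers had an unadjusted p below 0.05 in either LPS comparison. Of the striatal markers 1 had such a p between the genotypes after LPS, and 0 passed an FDR of 0.05. The part of these differences in the results below was not tested.

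Promoters are shown for the astrocyte-enriched Grm3, Grin2c and Gabrg1, all of which fell after LPS in cKO mice, and for Gria4, an AMPA subunit gene prominent in interneurons that fell in the same mice. Their promoters run from 250 bases before to 50 bases after the start of transcription (RefSeq, mouse build GRCm38.p6, minus strand for all 4) and are printed 5′ to 3′. Capitals mark the GC box GGGCGG and the STAT-type motif TTCNNNGAA, both searched on both strands along with the TATA box TATAAA and the cAMP response element TGACGTCA; neighbouring matches can overlap.
Grm3: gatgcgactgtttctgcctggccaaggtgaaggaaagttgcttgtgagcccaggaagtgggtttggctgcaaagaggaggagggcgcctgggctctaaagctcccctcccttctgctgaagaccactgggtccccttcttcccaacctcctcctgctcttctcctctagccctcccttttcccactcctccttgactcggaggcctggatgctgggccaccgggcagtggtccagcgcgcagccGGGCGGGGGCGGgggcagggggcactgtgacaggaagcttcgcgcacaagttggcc
Grin2c: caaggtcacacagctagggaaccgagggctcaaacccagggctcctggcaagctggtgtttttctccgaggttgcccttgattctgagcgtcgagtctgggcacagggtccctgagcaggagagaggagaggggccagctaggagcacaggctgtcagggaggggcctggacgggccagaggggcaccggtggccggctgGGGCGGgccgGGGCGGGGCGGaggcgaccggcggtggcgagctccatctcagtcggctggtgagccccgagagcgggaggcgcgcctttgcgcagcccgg
Gabrg1: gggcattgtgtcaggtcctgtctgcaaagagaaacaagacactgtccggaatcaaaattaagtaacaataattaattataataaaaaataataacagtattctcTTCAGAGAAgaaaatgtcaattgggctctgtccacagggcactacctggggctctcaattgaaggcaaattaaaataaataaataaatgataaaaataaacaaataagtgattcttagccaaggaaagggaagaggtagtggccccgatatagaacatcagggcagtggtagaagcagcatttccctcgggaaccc
Gria4: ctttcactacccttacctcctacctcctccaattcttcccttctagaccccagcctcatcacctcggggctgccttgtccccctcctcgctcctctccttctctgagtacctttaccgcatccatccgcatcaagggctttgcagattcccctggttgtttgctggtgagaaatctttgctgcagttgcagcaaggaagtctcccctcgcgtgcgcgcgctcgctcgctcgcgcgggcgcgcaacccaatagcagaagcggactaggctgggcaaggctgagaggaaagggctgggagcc
The Grm3 sequence lies at chr5:9725303-9725602, Grin2c at chr11:115267194-115267493, Gabrg1 at chr5:70842568-70842867 and Gria4 at chr9:4796185-4796484. The GC content of these promoters spanned a wide range, from 38.3% in Gabrg1 through 59.7% in Gria4 and 63.7% in Grm3 to 70.0% in Grin2c. The GC box matched in Grin2c (3 matches) and Grm3 (2 matches), the STAT-type motif matched in Gabrg1 (1 match), and none of the 4 motifs matched in Gria4. Over the 30 promoters listed for 23 of the receptor genes, the median GC content was 61% against 52.7% for all 32851 promoters. A GC box stood in 16 of the 30 (35.7% of all promoters), a TATA box in 3 (13.6% of all), a STAT-type motif in 2 (8.3% of all) and a cAMP response element in 0 (1.79% of all). These matches describe the letters in the window only.

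The mean log2 CPM over the saline and LPS libraries of control mice had a median of 6.54 for the receptor genes and of 4.68 for all genes in the authors' deposited table. Set per kilobase of the longest coding transcript, high back-calculated levels in saline-treated control cortex were those of Gabbr1 (GABA-B1, 151 CPM per kb, the highest) and Gria2 (GluA2, which makes AMPA receptors calcium-impermeable, 90.5 CPM per kb). The level was lowest for Grin2d (GluN2D, 0.91 CPM per kb). The order depends on the length used: with the median transcript length Grin2b moved from rank 14 to rank 2. Within the AMPA family Gria2 was highest and Gria4 lowest under both lengths, and among NMDA subunits Grin2c, Grin3a and Grin2d were the lowest under both. Of the astrocyte-enriched genes, Grm3 lay at 48.8 CPM per kb, Grin2c at 8.60 CPM per kb and Gabrg1 at 7.39 CPM per kb. All group levels given here are estimates, back-calculated from each table's fold change and mean level with the number of mice per group, and carry no spread between mice.

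After LPS in control mice, 4 of the 38 receptor genes fell and 0 rose in the authors' deposited table. They included Gabrg1, the gamma-1 subunit of GABA-A receptors, Grin2c and Grm5 (mGlu5, a Gq-coupled glutamate receptor). Of all genes, 9.76% were called in this comparison, 6.46% higher and 3.31% lower. At an unadjusted p below 0.05, 11 of the 38 passed, a share near the 28.9% of all genes that did. The median log2 fold change of the receptor genes was -0.06 against -0.00 for all genes, with 24 below 0 and 14 above, and the values ran from -0.50 to 0.39. In bulk tissue, fewer cells of a type and less RNA per cell cannot be told apart. Beside these values, 6 of 8 microglia and 6 of 8 endothelial markers rose in controls in the authors' deposited table (median log2 fold changes of 0.73 and 0.72), with summed levels going from 296 to 477 CPM and from 203 to 363 CPM; their part in the receptor values was not tested.

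In cKO mice LPS was followed by 7 falls and 2 rises among the 38 genes in the authors' deposited table for that genotype. Grm3, Grin2c, Gria4, Grm7 (mGlu7, a presynaptic autoreceptor), Grm5, Gabrg1 and Gabrg3 (the gamma-3 subunit) fell, and Gria1 (GluA1) and Gabra3 (the alpha-3 subunit) rose. Here 19.5% of all genes were called, 10.9% higher and 8.52% lower. An unadjusted p below 0.05 was reached by 15 of the 38, against 35.8% of all genes. The median was -0.13 against -0.00 for all genes, 32 genes lay below 0 and 6 above, and the range was -0.72 to 0.48. In these mice 4 microglia markers rose and 1 fell, and 5 endothelial markers rose, with summed levels going from 298 to 392 CPM and from 211 to 341 CPM; their part was not tested either.

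**Figure D1:**
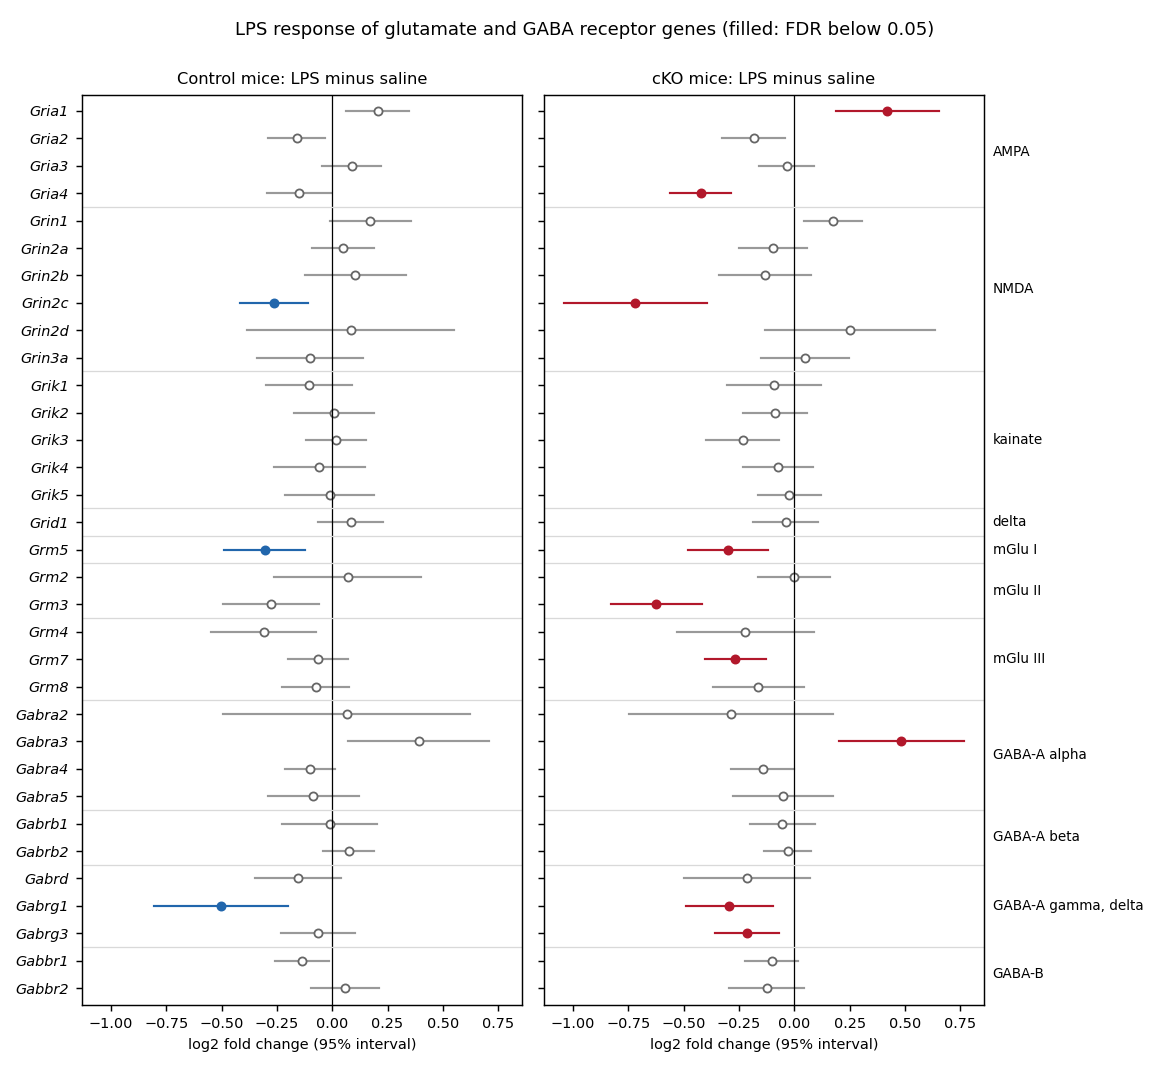
Log2 fold change of receptor genes, LPS minus saline, in control mice (left) and cKO mice (right), from the authors' deposited tables, with 95% intervals from the F statistic; filled points have an FDR below 0.05. In control mice Gabrg1, Grin2c and Grm5 have filled points below 0, and in cKO mice 7 lie below 0 and 2 above, with Grin2c (-0.72) and Grm3 (-0.62) farthest to the left.

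The largest fall in each genotype was that of an astrocyte-enriched receptor gene, Gabrg1 in controls and Grin2c in cKO mice. The astrocyte-enriched genes were listed with earlier results of these data known, so this ranking is a description only. Grm3, which encodes a Gi-coupled glutamate receptor, had a back-calculated level of 149 CPM after saline and 122.6 CPM after LPS in controls, and of 147 and 95.3 CPM in cKO mice. The level was similar in both saline groups and lowest in the cKO LPS group. In the authors' deposited tables this was a log2 fold change of -0.28 ± 0.10 SE in controls (FDR = 0.0949) and of -0.62 ± 0.09 SE in cKO mice (FDR = 0.00597), where Grm3 fell by 35.1%. Grin2c, an NMDA subunit that gives channels of low conductance and weak magnesium block, stood at 42.1 and 35.0 CPM in control mice after saline and LPS and at 52.6 and 32.0 CPM in cKO mice. It was highest in the cKO saline group. Grin2c fell by 16.8% in controls (-0.26 ± 0.07 SE, FDR = 0.0417) and fell by 39.2% in cKO mice (-0.72 ± 0.14 SE, FDR = 0.0128) in the authors' deposited tables. Gabrg1 went from 35.2 to 24.9 CPM in controls and from 33.8 to 27.5 CPM in cKO mice. It fell by 29.4% in controls (-0.50 ± 0.14 SE, FDR = 0.0463) and fell by 18.4% in cKO mice (-0.29 ± 0.09 SE, FDR = 0.0432) in the authors' deposited tables. The Gabrg1 calls ended with the trend of fold changes on transcript length and GC content removed, at -0.46 (adjusted p = 0.0680) in controls and -0.09 (adjusted p = 0.488) in cKO mice; Grin2c kept its calls there and Grm3 its call in cKO mice.

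The summed level of these 3 genes was 226 CPM in saline and 183 CPM in LPS controls, and 233 and 155 CPM in the cKO groups. The 10 astrocyte markers, none of them at 0, summed to 4208 and 4056 CPM in the control groups and to 4856 and 4322 CPM in the cKO groups. With LPS in controls 1 marker rose (Gfap, the intermediate filament of reactive astrocytes) and 3 fell (Aqp4, Gjb6 and Fgfr3), and in cKO mice 0 rose and 4 fell (Aqp4, S100b, Slc1a2 and Slc1a3) in the authors' deposited tables. Gfap had a log2 fold change of 1.35 in controls and, without passing the threshold, of 1.06 in cKO mice (FDR = 0.0548), where 5 of the 10 markers lay above 0.

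**Figure D2:**
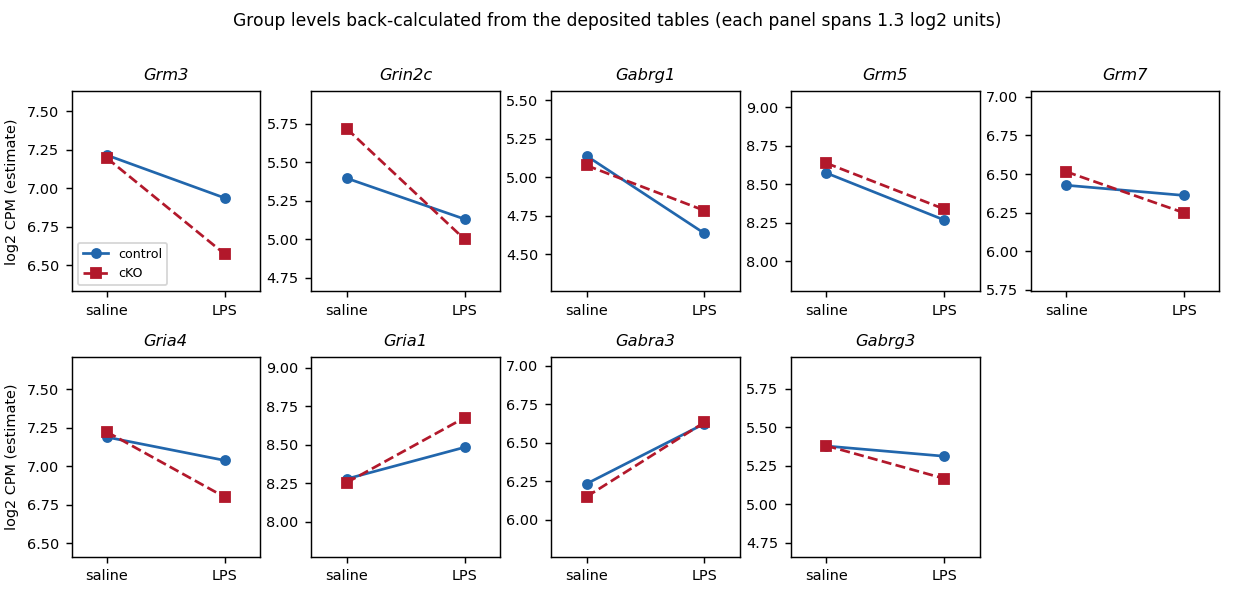
Back-calculated group level (log2 CPM, estimates without a spread between mice) after saline and after LPS in control mice (blue circles) and cKO mice (red squares) for 9 receptor genes called in either LPS comparison; each panel spans the same height. The points of Grm3, Gria4 and Gria1 start at nearly the same level in both genotypes and end apart, whereas those of Grm5 and Gabra3 run nearly parallel. None of these genes passed an adjusted p of 0.05 in the test of the difference of the LPS responses.

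Of the 4 AMPA receptor genes 0 were called in controls, and in cKO mice Gria1 rose and Gria4 fell. Over all genes, 9.76% were called in controls and 19.5% in cKO mice. Gria1, whose subunit is inserted into synapses during potentiation, stood at 310.4 and 358 CPM in control mice after saline and LPS and at 305 and 409 CPM in cKO mice. The group given both the deletion and LPS was the highest. Gria1 rose by 33.9% in cKO mice (0.42 ± 0.10 SE, FDR = 0.0238) and had a log2 fold change of 0.21 ± 0.06 SE in controls (FDR = 0.0721) in the authors' deposited tables. Gria4 stood at 146 and 131 CPM in controls and at 149 and 111 CPM in cKO mice. It fell by 25.4% in cKO mice (-0.42 ± 0.06 SE, FDR = 0.00597) and had -0.15 ± 0.06 SE in controls (FDR = 0.158) in the authors' deposited tables. Gria2 lay below 0 by a similar amount in both genotypes (-0.16 and -0.18, with FDR of 0.0985 and 0.0675), and Gria3 lay within 0.09 of 0 in both. Gria4 was the only one of 3 interneuron-enriched receptor genes to fall; Grik1 had -0.10 and -0.09 and Grin2d 0.08 and 0.25 in controls and cKO mice in the authors' deposited tables. Of 12 inhibitory neuron markers 0 were called in controls and 3 rose in cKO mice (Gad2, Slc32a1 and Dlx1), while Gria4 fell there. Of 12 excitatory neuron markers, Tbr1 and Camk2a rose in both genotypes and the rest were not called.

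Outside Grin2c no NMDA subunit gene was called. Grin1, the obligatory subunit, had 0.17 ± 0.08 SE in controls (FDR = 0.198) and 0.18 ± 0.06 SE in cKO mice (FDR = 0.0622) in the authors' deposited tables. Grin2a and Grin2b, the main partners of Grin1 in the adult forebrain, lay at 0.05 and 0.10 in controls and at -0.10 and -0.13 in cKO mice. All 5 kainate and both delta receptor genes missed the threshold in both genotypes. The smallest p in the kainate family belonged to Grik1 in controls (-0.10 ± 0.09 SE, FDR = 0.462) and to Grik3 in cKO mice (-0.23 ± 0.07 SE, FDR = 0.0532) in the authors' deposited tables. For the delta receptors, which act as synaptic organisers bound by cerebellin, it belonged in controls to Grid1 (0.08 ± 0.07 SE, FDR = 0.434), which had -0.04 ± 0.07 SE in cKO mice (FDR = 0.701).

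Among the metabotropic glutamate receptors 1 of 7 fell in controls and 3 of 7 in cKO mice, and 0 rose. Of all genes 3.31% fell in controls and 8.52% in cKO mice. Grm5, present in both neurons and astrocytes, stood at 381 and 309 CPM in control mice after saline and LPS and at 399 and 324 CPM in cKO mice. The step was nearly the same in both genotypes: it fell by 19.1% in controls (-0.31 ± 0.08 SE, FDR = 0.0461) and fell by 18.7% in cKO mice (-0.30 ± 0.08 SE, FDR = 0.0315) in the authors' deposited tables. With the length and GC trend removed both calls ended, at -0.28 (adjusted p = 0.0664) and -0.20 (adjusted p = 0.119). Grm7 stood at 86.0 and 82.2 CPM in controls and at 91.5 and 76.0 CPM in cKO mice. It fell by 16.9% in cKO mice (-0.27 ± 0.06 SE, FDR = 0.0192) and had -0.07 ± 0.06 SE in controls (FDR = 0.504) in the authors' deposited tables. Grm4, another presynaptic receptor of the same group, had the smallest p of that group in controls (-0.31 ± 0.11 SE, FDR = 0.0889). Grm2, the neuronal counterpart of Grm3, showed 0.07 ± 0.15 SE in controls and -0.00 ± 0.07 SE in cKO mice. Within this pair only Grm3 was called, and only in cKO mice. The cell type in which it fell was not tested.

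Among the 12 GABA-A receptor genes, Gabrg1 fell in both genotypes, and in cKO mice Gabrg3 fell and Gabra3 rose. Gabrg3 had levels of 41.6 and 39.8 CPM in controls and of 41.7 and 36.0 CPM in cKO mice. It fell by 13.7% in cKO mice (-0.21 ± 0.06 SE, FDR = 0.0453) and had -0.07 ± 0.08 SE in controls (FDR = 0.607) in the authors' deposited tables. With the trend removed the Gabrg3 call in cKO mice ended at -0.11 (adjusted p = 0.263). Gabrd, the subunit of extrasynaptic receptors that carry tonic inhibition, lay at -0.16 and -0.21 in controls and cKO mice (FDR of 0.264 and 0.261).

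Gabra3 was the GABA-A gene that rose. Its level was 75.2 CPM after saline and 98.6 CPM after LPS in controls, and 71.0 and 99.2 CPM in cKO mice, so the LPS groups lay above the saline groups in both genotypes. The rise was 39.8% in cKO mice (0.48 ± 0.13 SE, FDR = 0.0290), and controls had 0.39 ± 0.14 SE (FDR = 0.106) in the authors' deposited tables. Gabra3 is X-linked, and the sex-linked transcripts above differed between the groups. Without the X-linked genes, 8 receptor genes were called in cKO mice and 4 in controls. That count only drops these genes and keeps every other FDR, so it does not check whether sex affected the remaining genes. Gabra2 was measured with little precision: its SE of 0.25 in controls and 0.21 in cKO mice was larger than that of 99.5% and 99.7% of genes of like level, whose median SE was 0.07 and 0.06 on the log2 scale. The GABA-B genes, whose products form an obligatory pair, were not called: Gabbr1 had -0.14 ± 0.05 SE in controls (FDR = 0.135) and -0.10 ± 0.05 SE in cKO mice (FDR = 0.203).

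Several GABA-A genes lie in clusters. Of the neighbours Gabrg1, Gabra2, Gabra4 and Gabrb1 of chromosome 5, Gabrg1 was called and the other genes were not, in either genotype. The imprecisely measured Gabra2 had 0.06 ± 0.25 SE in controls and -0.29 ± 0.21 SE in cKO mice. Gabrg1 had -0.29 ± 0.09 SE in cKO mice, so the calls do not show that these neighbours differed there. The Gabrg1 calls also ended with the length and GC trend removed.

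**Figure D3:**
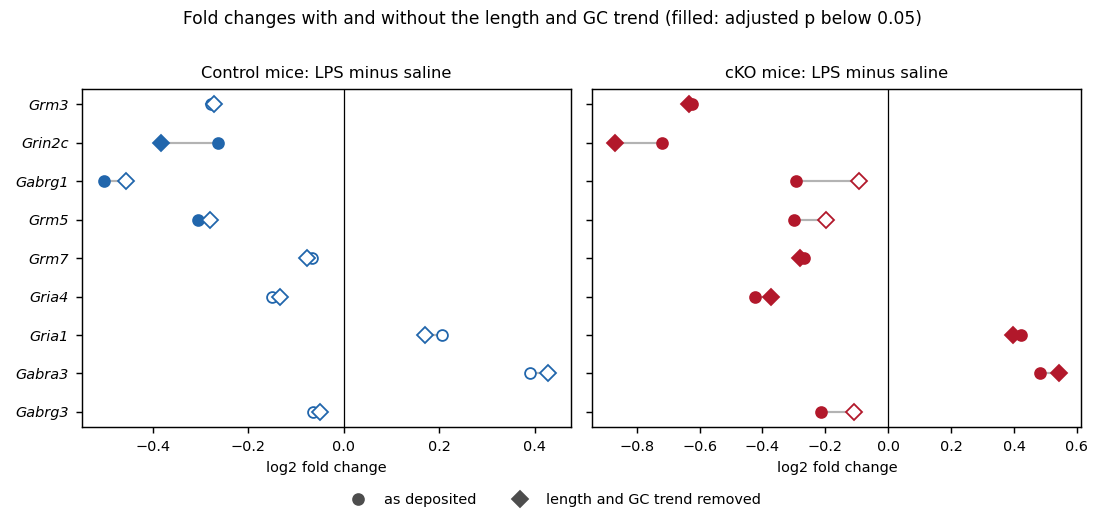
Log2 fold change of 9 receptor genes called in either LPS comparison, as in the authors' deposited tables (circles) and with the trend on transcript length and GC content over all genes removed (diamonds), in control mice (left) and cKO mice (right); filled symbols have an adjusted p below 0.05. In cKO mice Gabrg1 moves from -0.29 to -0.09, while Grm3, Grin2c, Gria4, Gria1, Gabra3 and Grm7 keep filled diamonds.

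The LPS comparisons of the genotypes share no library, and their values can be set side by side. Of the 38 genes, 26 (68.4%) had the same sign in both, 22 below 0 and 4 above, against 74.2% of all genes. Gabrg1, Grin2c and Grm5 fell in both, which is 75% of the calls in controls and 33.3% of those in cKO mice; for all genes the shares were 53.9% and 27.0%. The size of the log2 fold change was larger in cKO mice for 25 of the 38 and for 7686 of all 13784 genes. The difference of the LPS responses (cKO minus control), tested for each gene against its own SE, was past an adjusted p of 0.05 for 0 of the 38 genes, against 0.00725% of all genes, whether the SE came from the p-values or from F. The calls made in only 1 genotype are therefore not shown to differ between genotypes.

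Without adjustment and with SEs from the p-values, 3 of the 38 passed the test of the difference at 0.05, against 6.52% of all genes. They were Grik3 (-0.25, with a 95% interval of -0.47 to -0.03), Gria4 (-0.27, -0.52 to -0.02) and Grin2c (-0.45, -0.90 to -0.01). None stayed below 0.05 after Benjamini-Hochberg adjustment over all genes. The smallest adjusted p of the receptor genes was 0.687 (Grik3) with SEs from the p-values. With SEs from F, Gria4 had an adjusted p of 0.394. Grm3 had -0.34 with a 95% interval of -0.72 to 0.03, and Grm7 had -0.20 with -0.41 to 0.01. These intervals take SEs from the p-values. With SEs from F, a t test of the difference gave an unadjusted p of 0.0181 for Grm3 and 0.0306 for Grm7. Adjusted over all genes, these were 0.494 and 0.552. Grm5 had 0.01 with an interval of -0.29 to 0.30, and Gabra3 0.09 with -0.37 to 0.56. In other families with no gene at that level, the smallest p belonged to Grid1 (-0.12), Gabra2 (-0.35), Gabrb2 (-0.10), Gabrg3 (-0.15) and Gabbr2 (-0.18), and each of their intervals held 0. The median half-width of the 95% interval was 0.24, without adjustment over genes. With adjustment, 30.1% of simulated differences of 0.5 were recovered, so differences well above 0.24 could also be missed. The simulation changed 200 genes per run, drawn from all 13784. The cutoff after adjustment depends on how many genes change, so this share is not the detection rate for the receptor genes.

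Between cKO and control mice after LPS, 0 of the 38 genes passed an FDR of 0.05 in the authors' deposited table, where 0.00725% of all genes were called. The smallest FDR was 0.282, in edgeR's test for Gria4 and Grm3. At an unadjusted p below 0.05 there were 7 of the 38 genes, against 12.3% of all genes. Below 0 were Gria4 (-0.27 ± 0.07 SE, p = 0.00333), Grm3 (-0.40 ± 0.11 SE, p = 0.00441), Grik3 (-0.22 ± 0.08 SE, p = 0.0195), Grin2a (-0.19 ± 0.08 SE, p = 0.0338), Gabrb2 (-0.14 ± 0.06 SE, p = 0.0389) and Grm7 (-0.14 ± 0.06 SE, p = 0.0432), and above 0 was Gria1 (0.22 ± 0.10 SE, p = 0.0492), all from edgeR's test in the authors' deposited table. Other families had their smallest p in Gabra5 (0.14, p = 0.291), Gabrg3 (-0.16, p = 0.0513) and Gabbr2 (-0.16, p = 0.0627), unadjusted and from edgeR's test in the authors' deposited table. The median over the 38 genes was -0.02, with 21 below 0 and 17 above. This comparison shares its LPS libraries with each LPS comparison, so it is not a separate measurement of the cKO response. Beside these values, the 10 astrocyte markers had a median log2 fold change of 0.30 in the same table (6 above 0), the 12 excitatory neuron markers -0.08 (2 above 0) and the 9 striatal neuron markers 0.63.

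**Figure D4:**
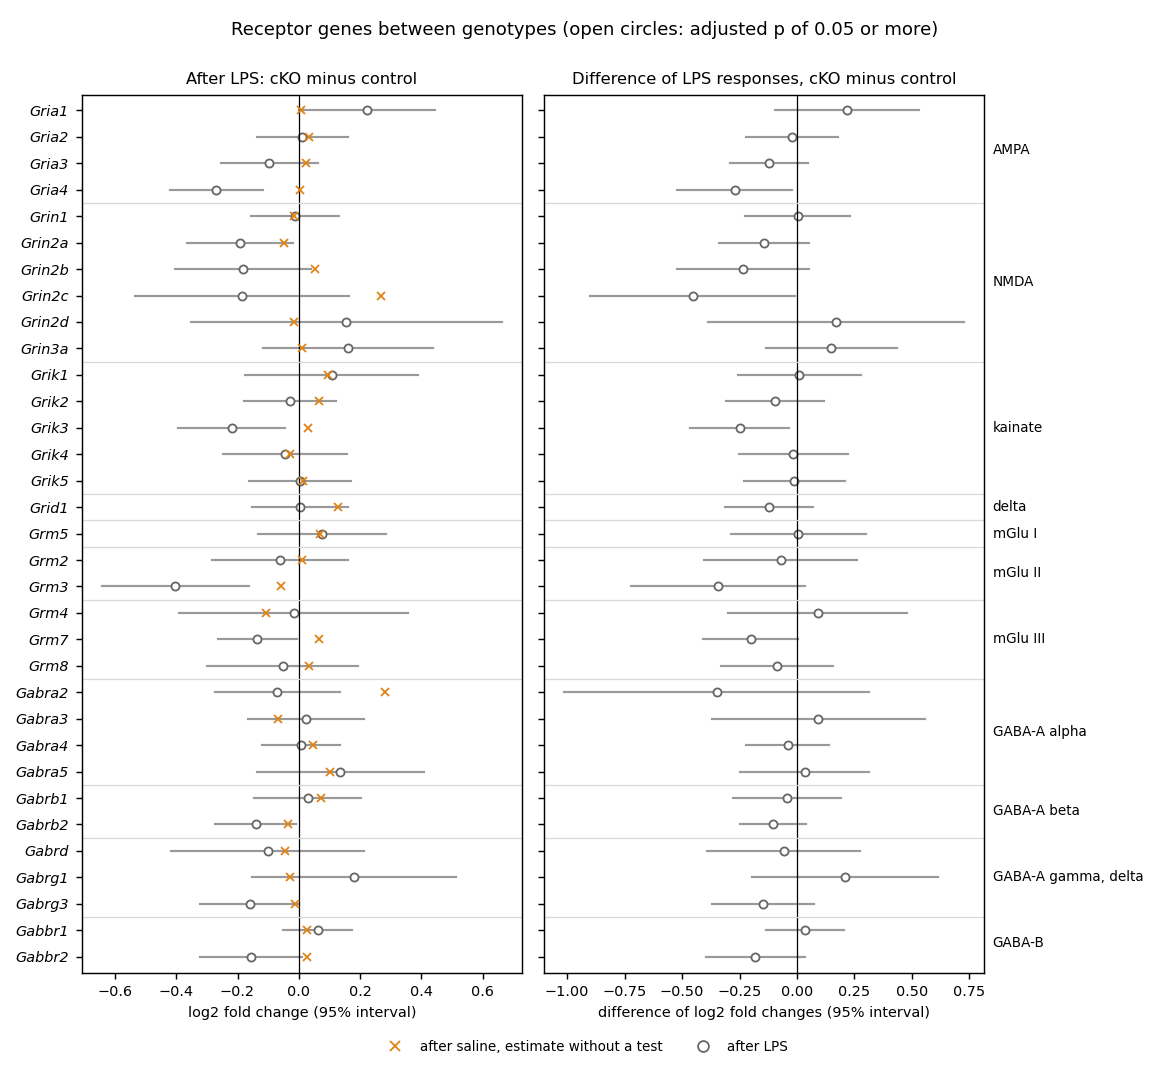
Left, log2 fold change of receptor genes between cKO and control mice after LPS from the authors' deposited table (circles, 95% intervals) and its estimate after saline (crosses, no test); right, the difference of the LPS responses with 95% intervals. All circles are open; after LPS Grm3 (-0.40) and Gria4 (-0.27) lie lowest, and their estimates after saline are -0.06 and 0.00.

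The difference between the genotypes after saline could be estimated from the 3 log2 fold changes, without a test. It lay between -0.11 and 0.28 for the receptor genes, with a median of 0.02, 25 above 0 and 13 below. All genes had a median of 0.00. The estimates farthest from 0, picked after their values were seen, were those of Gabra2 (0.28) and Grin2c (0.27), and both genes lay below 0 after LPS (-0.07 and -0.18 in the authors' deposited table). The 10 astrocyte markers all had estimates above 0 after saline (median 0.23), as did all 9 striatal neuron markers (median 0.26). Among the astrocyte-enriched receptor genes Grin2c lay above 0, and Grm3 (-0.06) and Gabrg1 (-0.03) did not.

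Partner genes of the receptors changed in both directions. Of all genes, 9.76% were called in controls and 19.5% in cKO mice. Of 18 AMPA receptor auxiliary subunit genes, 2 rose and 1 fell in controls and 2 rose and 2 fell in cKO mice in the authors' deposited tables. Cacng3 and Cacng4, which encode transmembrane AMPA receptor regulatory proteins, rose in both genotypes (Cacng3 by 0.59 and 0.55, Cacng4 by 0.55 and 0.67 on the log2 scale). Frrs1l, needed for AMPA receptor assembly, fell in both (-0.23 and -0.32), and Olfm3 fell in cKO mice (-0.37). Neto2, an auxiliary subunit of kainate receptors, fell in both (-0.38 and -0.48 in the authors' deposited tables) although no kainate receptor gene was called.

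Of 21 genes for postsynaptic scaffolds of glutamate receptors, 4 rose and 0 fell in controls, and 6 rose and 4 fell in cKO mice in the authors' deposited tables. Over all genes 6.46% rose and 3.31% fell in controls, and 10.9% rose and 8.52% fell in cKO mice. Dlg4 (PSD-95), Shank1 and Dlgap2 rose in both genotypes, with Shank1 at 0.62 in controls and 0.50 in cKO mice. The falls in cKO mice included Homer1, which links group I mGlu receptors to the scaffold (-0.59 ± 0.11 SE, FDR = 0.0108), Homer2 (-0.28), Lrrtm2 (-0.38) and Nlgn1 (-0.20). Both Grm5 and Homer1 thus fell in cKO mice; in controls Homer1 had -0.32 ± 0.17 SE (FDR = 0.237). Of 17 partners of GABA receptors 0 were called in controls. There 8 had an unadjusted p below 0.05 in edgeR's test, against 28.9% of all genes. In cKO mice 2 rose (Nlgn2, the adhesion protein of inhibitory synapses, 0.31, and Trak1, 0.28) and 2 fell (Ubqln1, -0.22, and Kctd16, a GABA-B auxiliary subunit, -0.28) in the authors' deposited tables.

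Genes that supply and clear the transmitters were called in cKO mice at about the 19.5% seen over all genes. Of 15 glutamate genes 0 rose and 3 fell, among them the astrocyte glutamate transporters Slc1a2 (-0.31) and Slc1a3 (-0.45) in the authors' deposited table for cKO mice. Of 10 GABA genes 2 rose, Gad2, which makes GABA (0.25), and Slc32a1, which loads it into vesicles (0.52), and 0 fell. In controls the calls were 1 fall among the glutamate genes (Glud1, -0.38) and 0 among the GABA genes. Of the 10 GABA genes 1 had an unadjusted p below 0.05 there in edgeR's test, against 28.9% of all genes. Of 7 genes that set the chloride gradient on which GABA-A currents depend, the kinase gene Wnk1 rose in controls (0.29), and Slc12a2 (NKCC1, -0.30) and Wnk3 (-0.27) fell in cKO mice in the authors' deposited tables. Of 15 activity-regulated trafficking genes, a list that includes Gria1, Camk2a rose in both genotypes (0.45 and 0.40), and Homer1, Nptx2 (-0.28) and Fos (-0.79) fell in cKO mice. None of the genes of these lists passed an FDR of 0.05 between the genotypes after LPS, or in the test of the difference of the LPS responses.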

How the data were processed

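The authors deposited 3 comparison tables; per the file headers they hold log2 fold changes, average log2 CPM, F statistics (a score), p-values and FDRs. Cutadapt 3.5, STAR, RSEM, edgeR 3.30.3 and GRCm39 are named in the submitters' processing notes; how genes were filtered is not stated there. Of 13784 genes, 757 carry no symbol. Each library is counted as 1 mouse. The p-values set a difference between groups against the variation between libraries. Groups follow the genotype and treatment labels, which match, although every title carries the word for saline. The headers give no direction: levels of the same group from separate tables had an SD of their difference over genes of 0.0537 (control LPS) and 0.0503 (cKO LPS) with changes read as LPS minus saline and cKO minus control, and at least 1 SD of 0.222 or more with a sign turned. SE is the absolute log2 fold change over the root of F; intervals use 9.85, 9.76 and 8.66 implied degrees of freedom (LPS in controls, LPS in cKO, genotypes). The test of the difference of LPS responses takes SEs from the normal quantile of the p-values. On simulated tables (13784 genes, 200 changed, 20 runs) it recovered 30.1% of differences of 0.5, 72.7% of 1 and 95.0% of 2 (log2), with 2.81% false calls. Transcript length and GC content came from GENCODE M21 by Ensembl ID (38 of 38 receptor genes). Python 3.11.15 and scipy 1.17.1 were used. The genes and lists were chosen with earlier results of these data known; named are receptor genes that were called and otherwise the smallest p per family and comparison. Alternatives were other thresholds, a level filter, centring and removal of a length and GC trend. Some genes of these families and lists are not reported here; the counts include them, and the plots do not show them.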

Additional observations from a re-analysis of the deposited data

How the results depend on the processing

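With an adjusted p below 0.10 in place of 0.05, 8 receptor genes were called for LPS in controls (1 higher, 7 lower) and 14 in cKO mice (3 higher, 11 lower). With a minimum fold change of 1.5 in addition, 0 were called in controls and 2 in cKO mice (Grin2c and Grm3). With the length and GC trend removed, 3 were called in controls (Gabbr1, Grin2c and Grm4) and 8 in cKO mice (Gabbr1, Gabra3, Gria1, Gria4, Grik3, Grin2c, Grm3 and Grm7), beside 1008 and 2071 of all genes (1346 and 2681 as deposited), and the median genotype difference after LPS went from -0.02 to 0.00; the cause was not tested. That trend held 6.68% of the variance of fold changes in controls and 9.34% in cKO mice. With genes of a mean log2 CPM of at least 1, or with the median of all genes subtracted, the counts of called receptor genes in both LPS comparisons stayed at 4 and 9, and 0 were called between genotypes or in the difference under every alternative run. Leaving out the X-linked genes and the alternatives for the saline estimate were added after the data were seen. No paired analysis was possible because values per library were not used here, and no library could be left out for the same reason.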
